A study of Mus musculus with 6 samples.

Results

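The transcription factors that set up the myeloid lineage were measured in neutrophils from the bone marrow of mice without miR-223 and of wild-type mice. The set held 8 genes, Cebpa, Cebpb, Cebpd, Spi1 (the gene of PU.1, older name Sfpi1), Gfi1, Runx1, Irf8 and Myb, covered by 14 of the 45101 probe sets of an Affymetrix expression array. Each probe set reads a transcript through several short probes. Members were taken by probe set number from a fixed list that pairs each number with a gene. No table at hand pairs the array's probe sets with genes, so these pairings were not checked, and neither were markers of neutrophils or of other bone-marrow cells, miR-223 itself or other genes of the same network. Each value is a log2 expression level as the authors deposited it, so a difference of 1 is a 2-fold difference, and levels of different probe sets cannot be set against each other.

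The miR-223 null group is null for the microRNA, per its label, and was represented by 3 arrays. The wild-type group was represented by another 3. In both groups the cells came straight from mouse bone marrow and were taken on magnetic columns with an antibody to Gr-1, a surface epitope that neutrophils carry and monocytes carry more weakly. Strain, age, sex and whether an array held RNA of a single animal are not stated in the labels, so the spread between arrays may be partly technical. Null replicates 1 and 2 were the closest pair of arrays, and whether they come from separate animals is not stated. The SD of their differences over the probe sets tested below was 0.228, against 0.318 for the next closest pair, wild-type replicates 2 and 3. The values are of bulk RNA, in which fewer cells of a type and less RNA per cell cannot be told apart.

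Neutrophils arise from progenitors in a sequence in which transcription factors hand over to each other. Runx1, Myb, PU.1 and C/EBPα act early, C/EBPα and Gfi1 turn precursors towards granulocytes, and PU.1 together with Irf8 favours monocytes. C/EBPβ and C/EBPδ are members of the same leucine-zipper family that are prominent in later or stimulated cells. The gene of miR-223 is itself switched on in myeloid cells by C/EBP factors and PU.1. The comparison asks how the levels of these factors stand in cells without the microRNA.

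The sequence missing from the null mice is shown first, because it is the only difference between the groups that the labels name. Mature miR-223 has 2 arms, given here 5′ to 3′ as in RefSeq (GRCm38.p6) with the seed, bases 2 to 8, in capitals. The seed is the stretch that pairs with target transcripts. Both arms lie on the plus strand of the X chromosome.
mmu-miR-223-3p, chrX:96242884-96242905: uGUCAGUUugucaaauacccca
mmu-miR-223-5p, chrX:96242842-96242864: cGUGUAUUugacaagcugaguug
The arms have different seeds. In DNA letters, a transcript that pairs with the seed of the 3p arm holds AACTGAC and one that pairs with the seed of the 5p arm holds AATACAC. Transcript sequences were not used here, so such sites were not counted in the 8 genes.

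None of the 14 probe sets passed the test between null and wild-type cells. With limma and a Benjamini-Hochberg adjusted p under 0.05 over 22519 tested probe sets, 0 of 14 were called, whereas 864 of all tested probe sets, or 3.84%, were called. By direction, 2.78% of all tested probe sets were called higher in null cells and 1.06% lower, against 0 members either way. At an unadjusted p under 0.05, 1 of 14 differed, against 18.7% of all tested probe sets. All 14 lay above the filter on dim probe sets, a mean of 4.83 over the 6 arrays. The median size of the difference between groups, regardless of sign, was 0.167 over the 14 and 0.136 over all tested probe sets. Of the 14, 11 (78.6%) had a lower mean in null cells and 3 a higher one, and 51.8% of all tested probe sets had a lower mean in null cells. The 11 include 2 probe sets of Cebpb, 3 of Runx1 and 3 of Myb, so these genes count repeatedly. The 3 with a higher mean were those of Cebpa and Irf8. A miss of the threshold does not show that levels were alike, so the 95% interval of each difference is given with it.

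**Figure D1:**
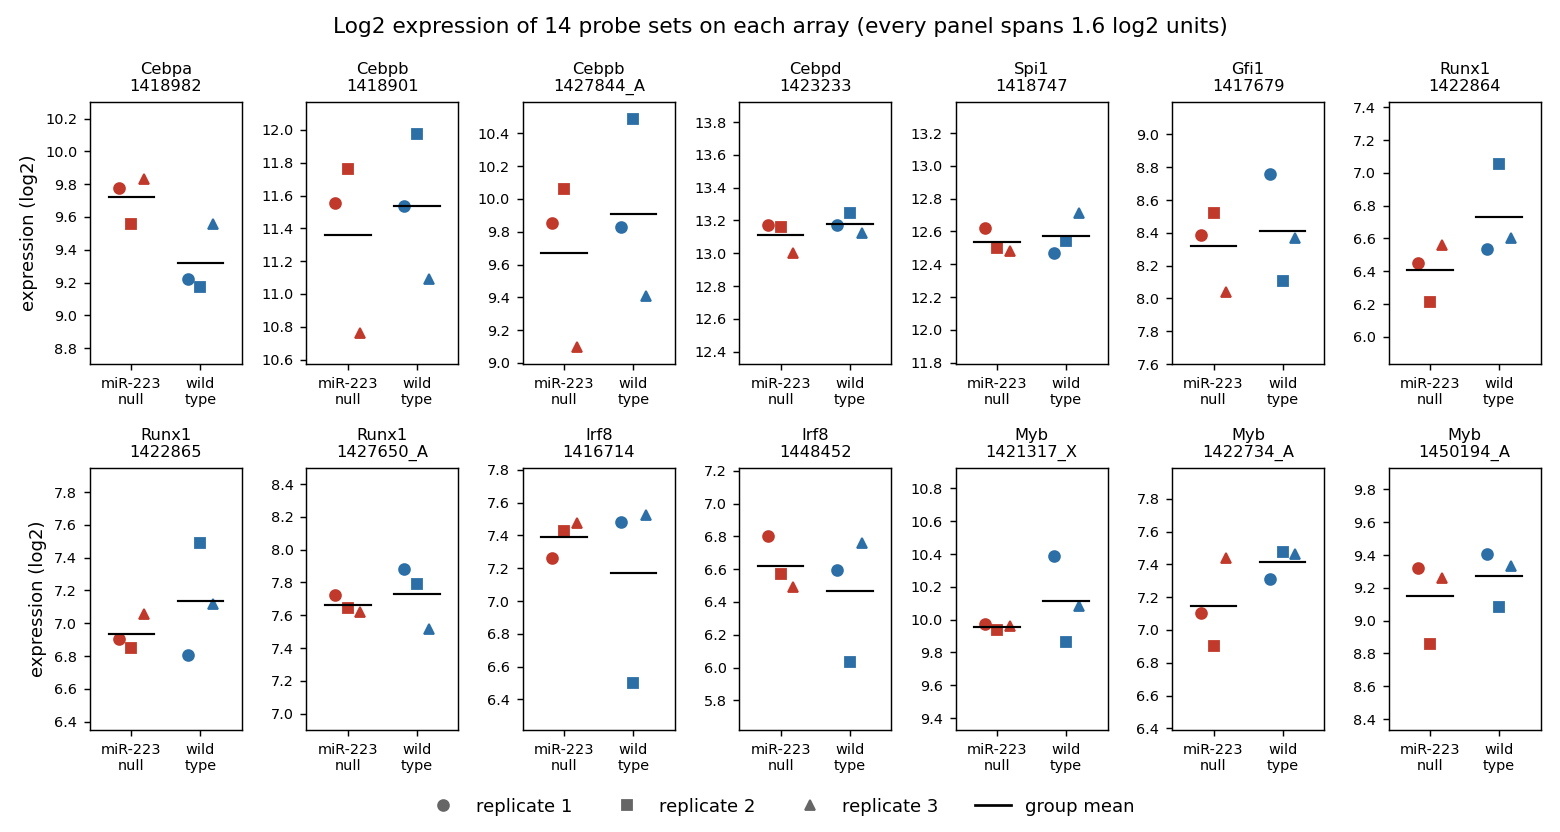
Log2 expression of each of the 14 probe sets (one panel each) in miR-223 null arrays (red, left) and wild-type arrays (blue, right); symbols mark the replicate number and black lines the group means. Cebpa is the panel in which the 3 null values all lie above the 3 wild-type values.

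Cebpa, the factor needed for progenitors to enter the granulocyte line, showed the largest difference of the set. Probe set 1418982_AT lay at 9.78, 9.559 and 9.83 in null replicates 1 to 3, against 9.22, 9.17 and 9.557 in wild-type replicates 1 to 3. All null values were above all wild-type values, although the highest wild-type array (9.557) nearly met the lowest null array (9.559). Null cells averaged 9.72 ± 0.14, and wild-type cells averaged 9.32 ± 0.21 (SD, n = 3 each). The difference was 0.40 with a standard error of 0.13 and a 95% interval of 0.11 to 0.70, or 1.32-fold (1.08 to 1.62). Its unadjusted p was 0.0138, and its adjusted p over all tested probe sets was 0.134 (limma), so it was not called. Without each array in turn the adjusted p lay between 0.0737 and 0.344, and with null replicates 1 and 2 averaged it was 0.241 (limma). Groups that did not overlap were found for 1 of the 14 members and for 24.6% of all tested probe sets.

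A further grouping, called technical sets here, was made by a cut in the brightness of the hybridization controls. These are bacterial and phage sequences added to the labelled sample. Null replicates 1 and 2 and wild-type replicate 1 form the brighter set, and null replicate 3 and wild-type replicates 2 and 3 the dimmer one. The control means were 10.94 to 10.98 in the brighter set and 10.72 to 10.81 in the dimmer one. The cut lies at the largest gap between these means, 0.131. Such a cut gives 2 sets for any values, and no label names a batch. Whether the sets stand for a real batch was not tested. For Cebpa the difference, null minus wild type, was 0.44 within the brighter set and 0.46 within the dimmer set. The brighter set holds a single wild-type array and the dimmer set a single null array, so each within-set difference rests on that array. When the technical set was made a block, the Cebpa difference was 0.45 with a standard error of 0.12 and an adjusted p of 0.0523 (limma), in a fit that called 11.0% of all probe sets. Leaving out arrays under the block was not planned and was chosen after the data were seen. With the block and without wild-type replicate 2 the difference was 0.37 (limma adjusted p = 0.0425), and with the block and without wild-type replicate 3 it was 0.53 (limma adjusted p = 0.0233). These fits alone called a member, 1 of 14 each, and in each it was Cebpa. They called 12.9% and 10.7% of all tested probe sets. In the other 4 fits with the block and an array left out, the adjusted p of Cebpa lay between 0.0927 and 0.274 (limma).

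The region before the start of Cebpa (GRCm38.p6, chr7:35119043-35119292, plus strand, from RefSeq) is shown because Cebpa is the member whose groups did not overlap. It covers the 250 bases up to the start, on the strand of the gene, with TATAAA in capitals.
Cebpa: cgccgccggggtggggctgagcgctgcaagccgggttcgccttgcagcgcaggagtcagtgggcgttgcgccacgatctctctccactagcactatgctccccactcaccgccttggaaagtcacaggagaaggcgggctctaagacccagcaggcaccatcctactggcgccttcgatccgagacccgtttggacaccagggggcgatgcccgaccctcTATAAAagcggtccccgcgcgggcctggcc
The TATAAA stretch begins 30 bases before the start, and 12.4% of all 32851 promoter windows of this length hold it on either strand. Among the 9 windows of the set it stands in 2, the other being at an Irf8 start, where it begins 31 bases before the start. Within these 250 bases, none of the motifs searched for the factors of the set was found, on either strand and each motif counted on its own. Only exact matches to the letters were counted, so a site that departs from them by a base was missed. A window without the letters may therefore still hold a site. The letters were TTGCNNAA for C/EBP factors (in 9.56% of all windows), GAGGAA for PU.1 (23.3%), TGTGGT for Runx1 (14%), TAACNG for Myb (19.8%), AAATCA for Gfi1 (12.4%) and GAAANNGAA for interferon regulatory factors such as Irf8 (7.13%). Windows were at hand for 6 of the 8 genes. Of the 9 windows, 1 held the C/EBP letters, at a Gfi1 start. The PU.1 and Myb letters stood in 1 window each, both at Runx1 starts, and the Gfi1 letters in 2, both at Irf8 starts.

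Cebpb, the factor of stimulated granulopoiesis, had the largest spread within groups of the set, by the SD pooled over both groups. Probe set 1418901_AT was at 11.55, 11.76 and 10.76 in null replicates 1 to 3, against 11.54, 11.98 and 11.09 in wild-type replicates 1 to 3. Probe set 1427844_A_AT was at 9.86, 10.06 and 9.09 in null cells, against 9.83, 10.49 and 9.41 in wild-type cells, in the same order of replicates. The suffix A marks probe sets that Affymetrix designed to match several transcripts of a gene. Replicate 3 was the lowest array of each group in both probe sets, and wild-type replicate 2 was the highest of all. The 2 probe sets placed the 6 arrays in the same order. The pooled SD within groups was 0.486 and 0.528, above that of 96.8% and 97.7% of all tested probe sets, whose median was 0.153. Within wild-type cells alone, Irf8 1416714_AT had a larger SD, 0.582, than either Cebpb probe set (0.443 and 0.546). The difference between group means was −0.18 (95% interval −0.86 to 0.51) for 1418901_AT and −0.24 (−0.98 to 0.51) for 1427844_A_AT, with adjusted p of 0.829 and 0.780 (limma). These intervals leave room for levels up to 1.81-fold and 1.98-fold higher in wild-type cells. Without null replicate 3 both differences turned positive, to 0.12 and 0.05. With all arrays and replicate number as a block, the intervals were narrower, −0.38 to 0.02 and −0.50 to 0.02. No label pairs the replicates.

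Cebpd, a C/EBP family member prominent in later or stimulated cells, was steady. Probe set 1423233_AT was at 13.1737, 13.1631 and 13.0002 in null cells and at 13.1742, 13.2465 and 13.1215 in wild-type cells. The lowest array of each group was again replicate 3, as for Cebpb, but all 6 arrays lay within 0.246. The difference was −0.07 (95% interval −0.22 to 0.08, limma adjusted p = 0.666). The ends of this interval are a level 1.17-fold higher in wild-type cells and one 1.06-fold higher in null cells. In limma without its intensity trend they were 1.22-fold and 1.11-fold. Without null replicate 3 the difference was −0.012.

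Spi1, whose product PU.1 is an ETS-family factor that myeloid cells need from the progenitor stage on, was equally steady. Probe set 1418747_AT was at 12.62, 12.50 and 12.48 in null cells and at 12.47, 12.54 and 12.71 in wild-type cells. The groups overlapped fully, with the lowest and the highest array both wild type. The difference was −0.04 (95% interval −0.22 to 0.14, limma adjusted p = 0.854). A level 1.16-fold higher in wild-type cells and one 1.10-fold higher in null cells are the ends of that interval. In limma without its intensity trend they were 1.21-fold and 1.14-fold. Cebpd and Spi1 had the smallest spread within groups of the 14, with pooled SDs of 0.0818 and 0.102.

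Irf8, the interferon regulatory factor that with PU.1 drives monocyte fate and restrains neutrophil production, was set apart by a single array. Probe set 1416714_AT was at 7.26, 7.43 and 7.47 in null cells, against 7.48, 6.50 and 7.53 in wild-type cells. Probe set 1448452_AT was at 6.80, 6.57 and 6.49 in null cells, against 6.60, 6.04 and 6.76 in wild-type cells. In both probe sets wild-type replicate 2 was the lowest array, below the other 5, which lay between 7.26 and 7.53 for 1416714_AT and between 6.49 and 6.80 for 1448452_AT. The difference was 0.22 (95% interval −0.40 to 0.84, limma adjusted p = 0.751) for 1416714_AT and 0.16 (−0.31 to 0.62, limma adjusted p = 0.763) for 1448452_AT. Without wild-type replicate 2 the differences were −0.12 (−0.42 to 0.18) and −0.06 (−0.41 to 0.30), so that the higher mean in null cells rested on this array.

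Gfi1, a zinc-finger repressor that holds back the monocyte programme in granulocyte precursors, overlapped between the groups. Probe set 1417679_AT was at 8.39, 8.52 and 8.04 in null cells and at 8.76, 8.11 and 8.37 in wild-type cells. All 3 brighter arrays lay above all 3 dimmer ones, although null replicate 1 (8.39) nearly met wild-type replicate 3 (8.37). The technical sets separated 17.6% of all tested probe sets in either direction. The difference of Gfi1, null minus wild type, was −0.09 (95% interval −0.54 to 0.35, limma adjusted p = 0.867). With the technical set as a block it was −0.25 (−0.50 to −0.0011), with an unadjusted p of 0.0492 and an adjusted p of 0.191 (limma). Within the brighter set the difference was −0.30 and within the dimmer set −0.20. The set itself had an effect of 0.47 with a standard error of 0.11 on Gfi1, brighter minus dimmer (limma adjusted p = 0.0722), with null and wild type in the same fit.

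**Figure D2:**
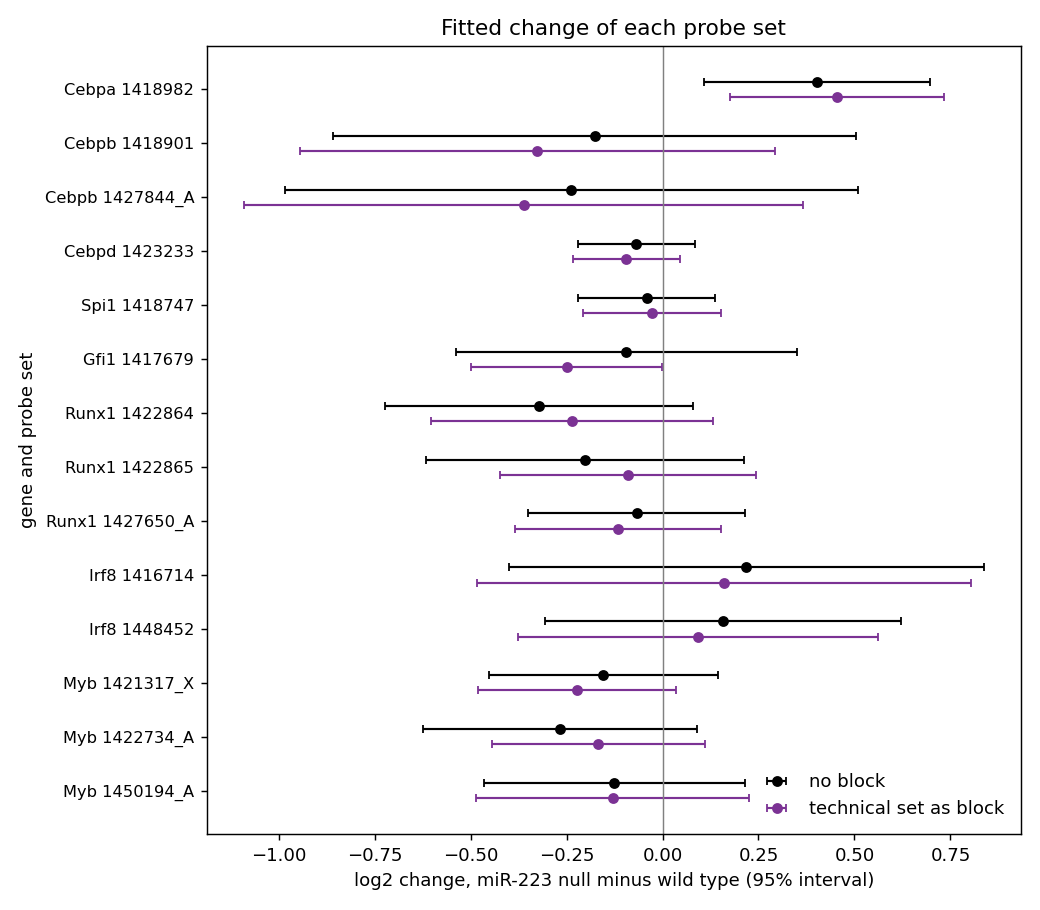
Difference in log2 expression, miR-223 null minus wild type, for each probe set with its 95% interval, from the fit without a block (black) and with the technical set of arrays as a block (purple). Intervals cross 0 for all but Cebpa without the block and for all but Cebpa and Gfi1 with it. The interval is narrowest for Cebpd and Spi1 and widest for Cebpb.

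Runx1, the DNA-binding subunit of core binding factor, which progenitors need to form, was covered by 3 probe sets that did not behave alike. Probe set 1422864_AT was at 6.45, 6.21 and 6.56 in null cells, against 6.53, 7.05 and 6.60 in wild-type cells. Probe set 1422865_AT was at 6.90, 6.85 and 7.06 in null cells, against 6.81, 7.49 and 7.12 in wild-type cells. In these 2, wild-type replicate 2 was the highest array and every brighter array lay below every dimmer one. Probe set 1427650_A_AT was at 7.72, 7.64 and 7.62 in null cells and at 7.88, 7.79 and 7.52 in wild-type cells, where wild-type replicate 1 was the highest and replicate 3 the lowest. The differences were −0.32 (95% interval −0.72 to 0.08), −0.20 (−0.62 to 0.21) and −0.07 (−0.35 to 0.22) in that order. Their adjusted p were 0.380, 0.630 and 0.846 (limma). Without wild-type replicate 2 the first of these was −0.16 and the second −0.03.

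Myb, which keeps progenitors dividing and falls in level as myeloid cells mature, had 3 probe sets with lower means in null cells, none past the threshold. Probe set 1422734_A_AT was at 7.10, 6.90 and 7.44 in null cells, against 7.31, 7.48 and 7.46 in wild-type cells. Probe set 1450194_A_AT was at 9.32, 8.86 and 9.26 in null cells, against 9.40, 9.08 and 9.33 in wild-type cells. In both, null replicate 2 was the lowest array. Probe set 1421317_X_AT, whose suffix marks probes that may bind other transcripts too, was at 9.97, 9.94 and 9.96 in null cells and at 10.39, 9.86 and 10.08 in wild-type cells. Its 3 null arrays lay within an SD of 0.017, against 0.264 for the wild-type arrays.

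The Myb differences were −0.27 (95% interval −0.62 to 0.09) for 1422734_A_AT, −0.13 (−0.47 to 0.21) for 1450194_A_AT and −0.15 (−0.45 to 0.14) for 1421317_X_AT. Adjusted p were 0.417, 0.735 and 0.604 (limma). Single arrays moved them: 1421317_X_AT was at −0.016 without wild-type replicate 1 and at −0.28 without wild-type replicate 2, and 1422734_A_AT was at −0.14 without null replicate 2 and at −0.41 without null replicate 3. Probe set 1450194_A_AT was at 0.018 without null replicate 2 and at −0.22 without wild-type replicate 2. The ends of these intervals allow levels up to 1.54-fold, 1.38-fold and 1.37-fold higher in wild-type cells. When the 3 probe sets were averaged and fitted as a single row, Myb was at 8.80, 8.57 and 8.89 in null cells and at 9.03, 8.81 and 8.96 in wild-type cells. The averaged difference was −0.18 (−0.45 to 0.08, limma adjusted p = 0.461). The averages for the other genes with several probe sets were −0.21 (−0.92 to 0.50) for Cebpb, −0.20 (−0.51 to 0.12) for Runx1 and 0.19 (−0.33 to 0.71) for Irf8.

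Across the set, wild-type replicate 2 held more extreme values than any other array. It was the highest or lowest of the 6 arrays for 10 of the 14 probe sets, or 71.4%, whereas it was so for 33.2% of all tested probe sets. It was the highest for both Cebpb probe sets, Cebpd, 2 of 3 Runx1 probe sets and Myb 1422734_A_AT. It was the lowest for Cebpa, both Irf8 probe sets and Myb 1421317_X_AT. Wild-type replicate 1 was the highest or lowest for 6 of the 14 (42.9%, against 42.7% of all tested), null replicate 3 for 5, null replicate 2 and wild-type replicate 3 for 3 each, and null replicate 1 for 1. The 14 probe sets belong to 8 genes, so probe sets of a gene count repeatedly here.

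**Figure D3:**
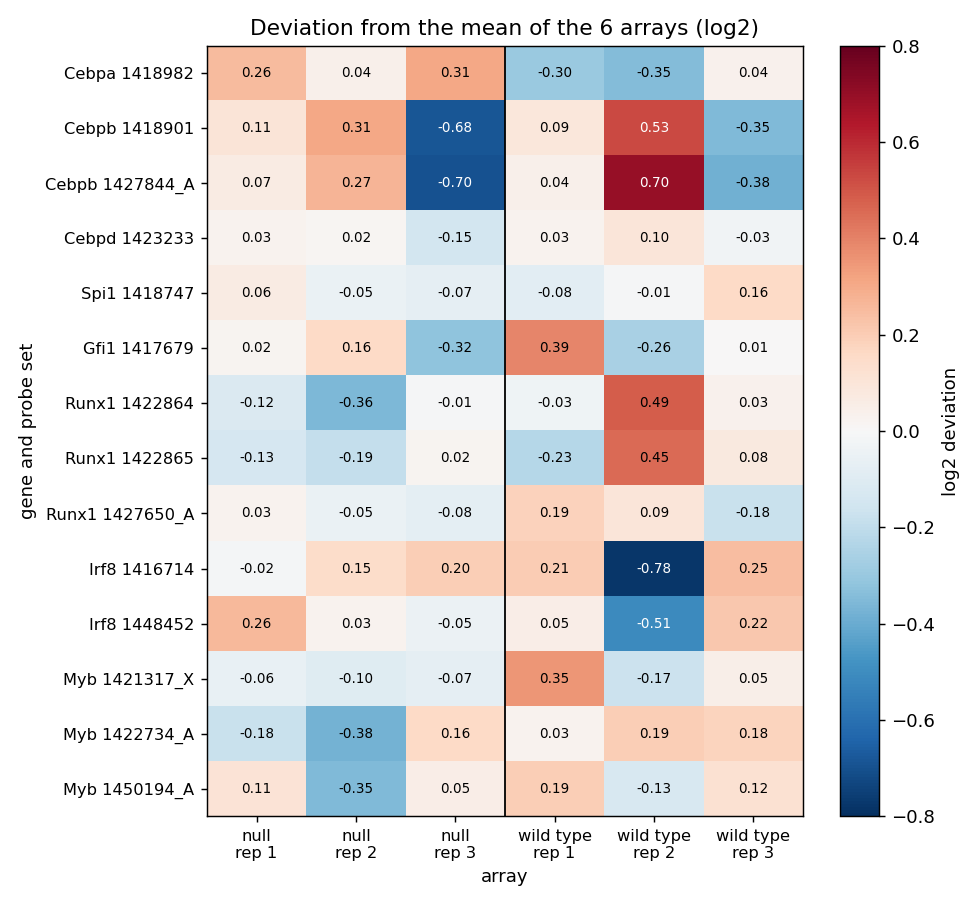
Deviation of each array from the mean of the 6 arrays for each probe set, in log2 units, with null arrays left of the black line and wild-type arrays right of it; red is above the mean and blue below. Wild-type replicate 2 stands out at −0.78 and −0.51 for Irf8 and at 0.53 and 0.70 for Cebpb, and null replicate 3 at −0.68 and −0.70 for Cebpb.

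The technical sets separated 4 of the 14 probe sets (28.6%), against 17.6% of all tested probe sets. These were Gfi1, which was higher on the brighter arrays, and Runx1 1422864_AT, Runx1 1422865_AT and Myb 1422734_A_AT, which were lower on them. With null and wild type in the fit, the effect of the set passed the threshold for 0 of the 14 (limma), with an unadjusted p under 0.05 for Gfi1, Runx1 1422865_AT and Myb 1422734_A_AT. It passed for 1.94% of all tested probe sets. Whether the sets account for any part of the differences of these 4 probe sets was not tested. With the block the differences were −0.25 against −0.09 without it for Gfi1, −0.24 against −0.32 for Runx1 1422864_AT, −0.09 against −0.20 for Runx1 1422865_AT, and −0.17 against −0.27 for Myb 1422734_A_AT. The Cebpb probe sets differed in sign between the sets, at 0.12 and 0.13 in the brighter and at −0.77 and −0.85 in the dimmer, where null replicate 3 was their lowest array.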

How the data were processed

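The deposited log2 values of 6 arrays (3 miR-223 null, 3 wild type) were used. Per the submitters' processing notes the authors used GCOS. No source used here gives its version or the normalization steps. That the scale is log2 was read from the range of the deposited values (2.12 to 14.98). Sorted columns differed by at most 0.0890, so no scaling was added. Array medians lay between 4.81 and 4.84. No value column was left out.

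Probe sets were tested singly with limma 3.58.1 in R 4.3.3 (lmFit, eBayes with trend, two-sided, Benjamini-Hochberg), after 64 control probe sets and those with a mean below 4.83 were removed. The code was tested on simulated data. The number of arrays limits precision (median standard error 0.128).

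Members and lists were chosen with earlier results of these data known. All 14 members were to be named. The planned lists of other factors, targets and cell-type markers, and the genes with the most similar pattern, were not analysed here for want of probe set names. Replicate numbers were not taken as pairs because no label pairs them. Deviations from the group means correlated between the groups at 0.211, −0.124 and 0.371 for numbers 1 to 3. All 8 gene symbols matched RefSeq. Alternatives were another filter, trend, scaling, offset, blocks, averaging and left-out arrays. Figures used matplotlib 3.10.9.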

Additional observations from a re-analysis of the deposited data

How the results depend on the processing

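The count of called members was 0 of 14 in the fit without a block. It was also 0 of 14 without the filter, without the trend and without each array in turn. The same count was found with the replicate block, with a block for the technical set and with null replicates 1 and 2 averaged. It was found too with arrays centred or quantile-normalized and with 16 added on the linear scale. With probe sets of a gene averaged, 0 of 8 genes were called. With the block for the technical set, the count of called members ranged from 0 to 1 when arrays were left out. That setting was chosen after seeing the data. The replicate block changed no call of a member (Cebpa adjusted p = 0.0658, limma), and 857 of all tested probe sets passed with it, against 864 without it. That count was 2466 with the block for the technical set and 119 with null replicates 1 and 2 averaged. It ranged from 85 to 592 without each array in turn, lowest without null replicate 1. With the block for the technical set it was 464 without null replicate 3, 123, 2909 and 2418 without wild-type replicates 1, 2 and 3, and within 1.5 times 864 without null replicate 1 or 2. The count over other listed factors could not be made.

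The sign of no member turned in the settings that kept all arrays. Leaving out an array turned it for 8 members, none of them called. The difference then ranged from −0.40 to 0.12 for Cebpb 1418901_AT (0.044 without wild-type replicate 2, 0.12 without null replicate 3) and from −0.49 to 0.053 for Cebpb 1427844_A_AT (0.051 without null replicate 3). It ranged from −0.093 to 0.027 for Spi1 and from −0.25 to 0.079 for Gfi1 (0.044 without null replicate 3). It ranged from −0.17 to 0.0085 for Runx1 1427650_A_AT, from −0.12 to 0.40 for Irf8 1416714_AT, from −0.056 to 0.31 for Irf8 1448452_AT and from −0.22 to 0.018 for Myb 1450194_A_AT. Among members whose sign held without each array in turn, the difference ranged from −0.099 to −0.012 for Cebpd, from −0.42 to −0.16 for Runx1 1422864_AT, from −0.37 to −0.028 for Runx1 1422865_AT, from −0.28 to −0.016 for Myb 1421317_X_AT and from −0.41 to −0.14 for Myb 1422734_A_AT. With the block for the technical set, the sign turned without null replicate 3 for Cebpb (0.12 and 0.13), Spi1 (0.089), Runx1 1422865_AT (0.066) and Irf8 1416714_AT (−0.14). It turned without wild-type replicate 2 for Runx1 1422865_AT (0.012) and Irf8 (−0.10 and −0.063), without wild-type replicate 3 for Spi1 (0.025) and without wild-type replicate 1 for Myb 1450194_A_AT (0.053). Under that block, omitting null replicate 3 or wild-type replicate 1 leaves only the other technical set to compare the groups in. Cebpa kept a higher mean in null cells in all of these fits, from 0.33 to 0.53.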
